A study of Danio rerio with 12 samples.

Results

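Heat shock proteins and DnaJ chaperones were examined as one family of genes in heads of zebrafish larvae that lack *rb1*. Members were the genes of the count table whose lower-case names begin with dnaja, dnajb or dnajc, or with hsp followed by a digit or by a, b, d or e. At least 10 counts were required over the 12 count columns, which are 2 lanes of each of 6 pools. This gave 80 of 32266 genes, the same 80 that matched by name before the count minimum. The rule used names and total counts, not the difference between genotypes, but it was set, as were the classes, with earlier results of these data known. Sorted by name into 12 classes, they include the heat-inducible Hsp70 genes, the chaperones of the cytosol, the endoplasmic reticulum (ER) and mitochondria, the small heat shock proteins and 3 subfamilies of J-domain proteins.

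RNA-Seq was carried out on 6 pools of 5 dissected heads each, taken at 5 days postfertilization (dpf) from WIK-background larvae. There were 3 pools of rb1-/- homozygous mutants (allele rb1Δ7) and 3 pools of +/+ wild types, brothers and sisters from an incross of heterozygous adults, and the trunks served for genotyping. The mutant allele is a germline frameshift present in every cell of the larva, so a head pool mixes brain, eye, muscle, blood and other tissue of one genotype. The labels name no heat or drug treatment, and the comparison asks how the transcriptome of the larval head differs without *rb1*.

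Each pool held between 41065256 and 47700950 counts on genes, summed over 2 lanes whose counts agreed within sampling noise. The *rb1* transcript was counted 570, 491 and 422 times in mutant pools 1, 2 and 3 and 1221, 830 and 826 times in wild-type pools 1, 2 and 3. The groups did not overlap, and the log2 fold change was -1.09 (SE 0.16, adjusted p = 0.0121, and 0.00614 with the pool number as a block), with an adjusted p between 0.0192 and 0.0585 when 1 pool was left out. The pools are the replicates (n = 3 per genotype). Levels are given as CPM, the counts relative to library size on a scale adjusted between pools by TMM. Fold changes are mutant over wild type, and adjusted p-values come from the edgeR quasi-likelihood test over all 22753 genes tested. Unless another fit is named, the pool number was left out of the fit.

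Chaperones hold client proteins in foldable states, using ATP in the case of Hsp70 and Hsp90. J-domain proteins bring clients to Hsp70 and start its ATPase, while nucleotide exchange factors such as the Hsp110 proteins reset it. Under heat or other protein-damaging stress, heat shock factor 1 induces a cytosolic set led by Hsp70, and unfolded protein in the ER induces a separate set led by BiP. Many chaperones are also made without stress, in dividing, secretory and neural cells among others.

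In mutant heads, 5 chaperone genes rose and none fell at an adjusted p of at most 0.05 in the fit without the pool number. With the pool number as a block 16 rose (20.3%, background 5.1%) and none fell (background 4.03%). The 5 were *hsp70l* and *hsp70.3* of the inducible Hsp70 class, the Hsp110 gene *hspa4a*, and the J-protein genes *dnajc2* and *dnajc9*. All 5 were between 1.62-fold and 2.28-fold higher, and in each of them all mutant pools lay above all wild-type pools. These were 6.33% of the 79 members tested, and the background of all genes higher at this threshold was 3.82%, with 2.17% lower. The stricter call, a change of 1.5-fold or more with an adjusted p no higher than 0.01, was met by *dnajc9* alone, against a background of 0.897% higher and 0.286% lower. In a bulk sample, a change in the number of cells of a type and a change in RNA per cell cannot be told apart.

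Over all members the differences were mostly small. The log2 fold change was above 0 in 57 of 79 members (72.2%), against 48.2% of all genes tested, and its median was 0.11, against -0.01 for all genes. All mutant pools exceeded all wild-type pools in 25 members (31.6%, background 16.1%), and the reverse held for 2 members (background 13.2%). At an unadjusted p under 0.05, 27 members were higher (34.2%, background 12.8%) and 2 were lower (background 10.5%). All members were measured in the same 6 pools, so their values are not independent of each other.

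The number of members that passed depended on the fit. When the pool number entered the fit as a replicate block, 16 members were higher at an adjusted p of at most 0.05 (20.3%, background 5.1%) and none was lower (background 4.03%). DESeq2 gave 12 higher (15.2%, background 6.27%) and none lower (background 5.19%), and it met the stricter call in 7 members, all higher (background 2.82%). With the block 2 members met it (background 0.747%). Without wild-type pool 2 no member passed, without mutant pool 1 or wild-type pool 3 only *dnajc9* passed, and without mutant pool 2 there were 8. The share of all genes that passed was not computed for fits that left out a pool, so these counts have no background beside them.

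**Figure D1:**
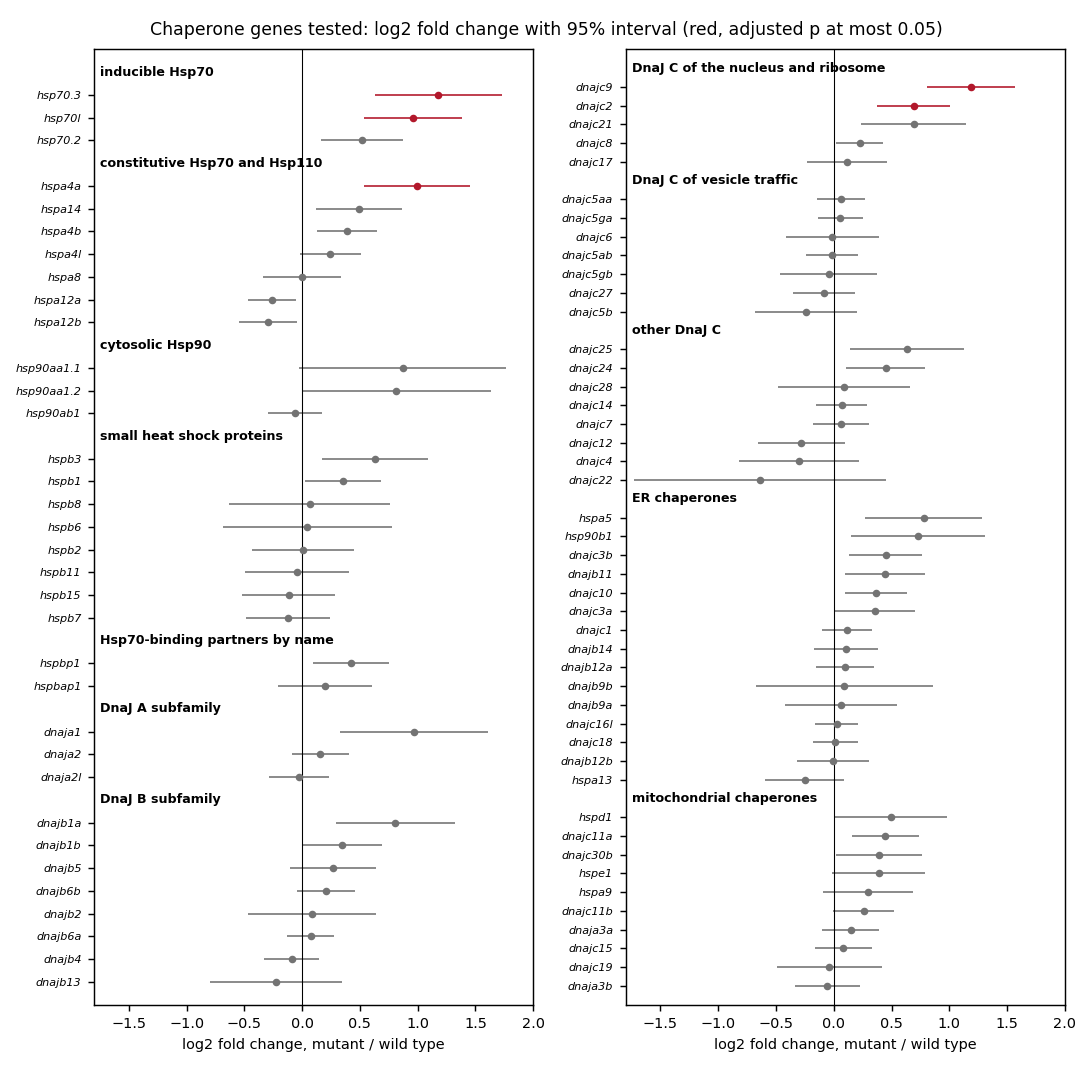
Log2 fold change (mutant over wild type, x axis) of the 79 tested members by class, as points with 95% intervals from the edgeR fit, with the 5 members at an adjusted p of at most 0.05 in red. Points lie to the right of 0 for 57 members, and the members range from -0.64 for *dnajc22* to 1.19 for *dnajc9*.

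Other features of the samples also differed between genotypes. All 12 proliferation markers had a log2 fold change above 0 (48.2% of all genes), and 7 of them were higher at an adjusted p of at most 0.05 (background 3.82%). With the replicate block all 12 were higher at this threshold (background 5.1%), and with DESeq2 also 12 (background 6.27%). Their summed level was 1685 to 1886 CPM in mutant pools and 643 to 1066 CPM in wild-type pools. Of 7 listed erythroid markers 6 were found, of which 5 were above 0 and 3 were higher at this threshold (background 3.82%). With the block 4 of them were higher (background 5.1%), and with DESeq2 5 (background 6.27%). The sums were 248 to 469 CPM in mutants and 182 to 235 CPM in wild types. All 9 photoreceptor markers were below 0, and 2 were lower at this threshold (background 2.17%). Their sums overlapped, at 10250 to 14194 CPM in mutants and 13632 to 16289 CPM in wild types. Of 13 lens markers, 7 were above 0 and none passed, while 5 were lower at an unadjusted p under 0.05 (background 10.5%). All mutant pools lay below all wild-type pools in 5 (background 13.2%), and 3 were lower by DESeq2 at the 0.05 threshold (background 5.19%). With the block 1 lens marker was lower at this threshold (background 4.03%). The lens sums overlapped (12396 to 14412 CPM in mutants and 13174 to 14585 CPM in wild types). Sums of the muscle list (12469 to 16048 and 14410 to 17894 CPM), the neuron list (2697 to 3511 and 2960 to 3252 CPM) and the list of immediate early genes (274 to 446 and 344 to 490 CPM) also overlapped between genotypes. Of 10 listed immediate early genes 8 were found, of which 4 were above 0 and none passed. With the replicate block 2 of them were lower at the 0.05 threshold (background 4.03%), and by DESeq2 also 2 (background 5.19%). In 2 of them all mutant pools lay below all wild-type pools (background 13.2%). Of 14 muscle markers 3 were above 0, and of 10 neuron markers 6 (48.2% of all genes), and none of either list passed. With the block 1 muscle marker was higher at the 0.05 threshold (background 5.1%), and by DESeq2 1 was lower (background 5.19%). No marker found was at 0 in any pool, and the part of these tissues and states in the chaperone differences was not tested.

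The heat-inducible Hsp70 genes encode the chaperones best known for their response to heat. All 3 of them had higher values in the mutants (48.2% of all genes), and 2 passed (background 3.82%). *hsp70l* (ENSDARG00000055723), which is heat-inducible and known in zebrafish for expression in the developing lens, was counted at 3.63, 2.65 and 3.05 CPM in mutant pools 1 to 3 and at 1.82, 1.48 and 1.49 CPM in wild-type pools 1 to 3. Even the lowest mutant pool was above the highest wild-type pool. It rose 1.94-fold (log2 fold change 0.96, SE 0.18, adjusted p = 0.0277). *hsp70.3* (ENSDARG00000021924) was counted at 6.57, 4.91 and 4.80 CPM in mutants and at 3.16, 1.78 and 2.24 CPM in wild types. Here too the groups stood apart, with pool 1 the highest of both. The rise was 2.26-fold (log2 fold change 1.18, SE 0.24, adjusted p = 0.0318).

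*hsp70.2* (ENSDARG00000092362), which lies next to *hsp70.3* in the RefSeq gene order, was counted at 4.06, 3.57 and 4.08 CPM in mutants and at 2.96, 2.33 and 2.87 CPM in wild types. The groups did not overlap, but the log2 fold change of 0.52 (SE 0.15) had an adjusted p of 0.0927 and did not pass. Reads from closely related Hsp70 copies can be split between them or lost when only uniquely aligned reads are kept, so the division among these genes is uncertain. All of them were low in both genotypes, with *hsp70l* between 59 and 178 counts per pool. Both passing genes lost the threshold when a single pool was removed. Without mutant pool 1 the adjusted p was 0.128 for *hsp70l* and 0.132 for *hsp70.3*. Without wild-type pool 2 it was 0.137 and 0.124, and without wild-type pool 3 it was 0.0974 and 0.112.

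**Figure D2:**
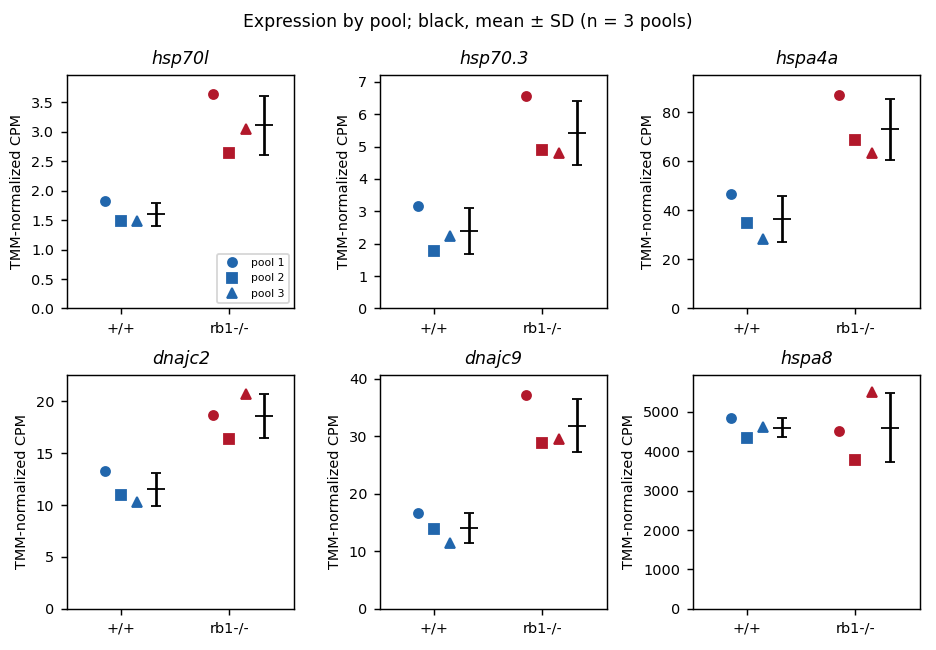
TMM-normalized CPM (y axis from 0) of the 5 members that passed and of *hspa8* in each pool, wild type in blue and mutant in red, with the marker shape giving the pool number and black bars the mean ± SD of 3 pools. The groups stand apart in the 5 genes that passed and overlap in *hspa8*, where mutant pools span 3772 to 5516 CPM.

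The constitutive Hsp70 and Hsp110 class held 7 genes that went in different directions. *hspa4a* (ENSDARG00000004754), an Hsp110-type nucleotide exchange factor, was counted at 87.1, 68.6 and 63.6 CPM in mutants and at 46.8, 34.7 and 28.5 CPM in wild types. In both genotypes pool 1 was the highest and pool 3 the lowest, and the groups stayed apart. It rose 1.99-fold (log2 fold change 1.00, SE 0.20, adjusted p = 0.0300), and with the replicate block it met the stricter call (adjusted p = 0.00614). The adjusted p was 0.123 without mutant pool 1, 0.141 without wild-type pool 2 and 0.0885 without wild-type pool 3.

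Its relatives had smaller log2 fold changes. *hspa4b*, the more abundant *hspa4* copy, was counted at 158, 151 and 190 CPM in mutants and at 131, 120 and 129 CPM in wild types, which gave a log2 fold change of 0.39 (SE 0.11, adjusted p = 0.0850, and 0.0257 with DESeq2). *hspa14*, a ribosome-associated Hsp70 in mammals, differed by a log2 fold change of 0.49 (SE 0.16, adjusted p = 0.117). With the replicate block *hspa14* passed (adjusted p = 0.0303). *hspa4l* had a log2 fold change of 0.25 with overlapping groups.

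*hspa8* (ENSDARG00000068992), the Hsc70 that cells make without stress, was counted at 4511, 3772 and 5516 CPM in mutants and at 4836, 4342 and 4629 CPM in wild types. The mutant pools lay on both sides of the wild-type pools. The log2 fold change was -0.00 (SE 0.14) with a 95% interval of -0.33 to 0.33. Differences within that interval are not excluded with 3 pools of each genotype, and larger ones could also miss the adjusted threshold. *hspa12a* and *hspa12b*, distant relatives of Hsp70, were the only members in which all mutant pools lay below all wild-type pools. *hspa12a* was at 14.8, 15.1 and 15.4 CPM in mutants and at 17.4, 18.9 and 17.9 CPM in wild types (log2 fold change -0.26, SE 0.09, adjusted p = 0.133). *hspa12b*, which in mammals is an endothelial gene, differed by a log2 fold change of -0.29 (SE 0.11, adjusted p = 0.152).

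Cytosolic Hsp90 completes the maturation of kinases and steroid receptors. The abundant form *hsp90ab1* (ENSDARG00000029150) was counted at 3555, 3710 and 4137 CPM in mutants and at 3681, 4120 and 4108 CPM in wild types. The groups overlapped, and the log2 fold change was -0.06 (SE 0.10, 95% interval -0.30 to 0.17). The *hsp90aa1* genes are the stress-responsive forms, of which *hsp90aa1.1* is known in zebrafish for its role in muscle. *hsp90aa1.2* was counted at 164, 116 and 80.2 CPM in mutants and at 94.7, 71.9 and 38.5 CPM in wild types. Pool 1 was the highest and pool 3 the lowest of both groups, which overlapped although each mutant pool exceeded the wild-type pool of its number.

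For *hsp90aa1.2* the log2 fold change was 0.81 (SE 0.35, adjusted p = 0.216), and with the replicate block it passed (adjusted p = 0.0123). *hsp90aa1.1*, its neighbor in the gene order, was at 18.8, 10.04 and 12 CPM in mutants and at 12.1, 5.90 and 4.40 CPM in wild types. Mutant pools 2 and 3 were lower than wild-type pool 1. Its log2 fold change was 0.87 (SE 0.39, adjusted p = 0.225, and 0.0310 with the block). The counts of these neighbors carry the same uncertainty as those of the *hsp70* copies. Both passed in the fit with the block only, not with DESeq2 (adjusted p = 0.0847 for *hsp90aa1.2* and 0.102 for *hsp90aa1.1*).

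J-proteins of the nucleus and ribosome formed the class with the highest share of tests passed outside the inducible Hsp70 genes, with 2 of 5 higher (background 3.82%) and all 5 above 0 (48.2% of all genes). *dnajc9* (ENSDARG00000031293), a cochaperone for histones H3 and H4 in human cells, was counted at 37.1, 28.8 and 29.5 CPM in mutants and at 16.7, 13.8 and 11.4 CPM in wild types. The lowest mutant pool was well above the highest wild-type pool. It had the largest rise of all members, 2.28-fold (log2 fold change 1.19, SE 0.16, adjusted p = 0.00954). The stricter call was lost on removing any pool, since the adjusted p then ran from 0.0105 to 0.0628, and the looser one was lost only without wild-type pool 2.

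*dnajc2* (ENSDARG00000070477), which binds ribosomes and acts on nascent chains, was counted at 18.7, 16.4 and 20.7 CPM in mutants and at 13.3, 10.93 and 10.3 CPM in wild types. The groups did not overlap. It rose 1.62-fold (log2 fold change 0.69, SE 0.14, adjusted p = 0.0298). The adjusted p was 0.128 without mutant pool 1, 0.0508 without mutant pool 3, 0.144 without wild-type pool 2 and 0.0995 without wild-type pool 3. *dnajc21*, which serves ribosome assembly, was counted at 11.6, 9.62 and 14.6 CPM in mutants and at 9.004, 6.38 and 6.82 CPM in wild types. Its groups were apart as well, with a log2 fold change of 0.69 (SE 0.19, adjusted p = 0.0823, and 0.0160 with DESeq2). The splicing-associated *dnajc8* (log2 fold change 0.23, adjusted p = 0.173) and *dnajc17* (0.11, adjusted p = 0.708) did not pass.

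Among the cytosolic A and B subfamilies, which are the general partners of Hsp70, none passed. *dnaja1* was counted at 43.9, 36.8 and 21.2 CPM in mutants and at 20.4, 18.7 and 13.02 CPM in wild types. Pool 3 was the lowest in both genotypes, and mutant pool 3 was just above wild-type pool 1. It had a log2 fold change of 0.97 (SE 0.28, adjusted p = 0.0846), and it passed with the replicate block (adjusted p = 0.0113) and with DESeq2 (adjusted p = 0.00670). *dnajb1a*, the Hsp40 that is induced with Hsp70 by heat, was counted at 15.7, 12.5 and 9.05 CPM in mutants and at 8.57, 6.78 and 5.98 CPM in wild types. The groups were again apart in the same pool order. Its log2 fold change was 0.81 (SE 0.22, adjusted p = 0.0776, 0.0162 with the block and 0.0115 with DESeq2).

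The other members of these subfamilies had smaller log2 fold changes. *dnajb1b* differed by a log2 fold change of 0.35 (adjusted p = 0.212). *dnaja2*, the most abundant J-protein gene here per length, had 0.16 (SE 0.11, adjusted p = 0.435). *dnaja2l* (-0.03, SE 0.11), *dnajb6a* (0.07, SE 0.09) and *dnajb4* (-0.09, SE 0.10) were close to 0, with adjusted p-values of 0.921, 0.673 and 0.665. *dnajb6a* encodes a suppressor of protein aggregation.

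The ER class held 15 genes. None passed in the edgeR fit without the block, 13 had a log2 fold change above 0 (48.2% of all genes), and 6 were higher at an unadjusted p under 0.05 (background 12.8%). With the block 3 were higher at an adjusted p of at most 0.05 (background 5.1%), and with DESeq2 2 (background 6.27%). *hspa5* (ENSDARG00000103846), the ER Hsp70 known as BiP, was counted at 305, 236 and 187 CPM in mutants and at 181, 126 and 118 CPM in wild types. Mutant pool 3 and wild-type pool 1 were almost level, and pool 1 was the highest of both groups. BiP had a log2 fold change of 0.78 (SE 0.22, adjusted p = 0.0821), with an adjusted p of 0.0124 with the block and of 0.00920 with DESeq2. *hsp90b1*, the ER Hsp90 known as Grp94, was counted at 250, 202 and 156 CPM in mutants and at 164, 114 and 88.1 CPM in wild types. The groups overlapped by mutant pool 3 and wild-type pool 1 alone. Its log2 fold change was 0.73 (SE 0.25, adjusted p = 0.129, 0.0131 with the block and 0.0348 with DESeq2).

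The J-proteins of the ER that work with BiP had smaller log2 fold changes than BiP itself, a difference that was not tested. The log2 fold change was 0.45 (SE 0.14, adjusted p = 0.0972) for *dnajc3b*, which also restrains the stress kinase PERK, and it passed with the block (adjusted p = 0.0431). It was 0.44 (SE 0.15, adjusted p = 0.126) for *dnajb11* and 0.37 (SE 0.12, adjusted p = 0.109) for the disulfide reductase *dnajc10*. The groups of all 3 were apart. *dnajb9a*, a J-protein that restrains IRE1 in mammals, was at 4.59, 4.33 and 4.17 CPM in mutants and at 4.99, 4.68 and 2.89 CPM in wild types, so it did not separate the genotypes (log2 fold change 0.06, adjusted p = 0.899). *hspa13* had the lowest value of the class (log2 fold change -0.25, adjusted p = 0.356).

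Mitochondrial chaperones numbered 10, with 8 above 0 (48.2% of all genes) and none passing. *hspd1*, the Hsp60 chaperonin, was counted at 128, 88.7 and 137 CPM in mutants and at 103, 64.7 and 83.7 CPM in wild types. Pool 2 was the lowest of both genotypes, and the mutant pool 2 value fell inside the wild-type range. The log2 fold change was 0.49 (SE 0.21, adjusted p = 0.209, and 0.0442 with the block). Its partner and neighbor in the gene order *hspe1*, or Hsp10, was also lowest in pool 2 of both genotypes, with a log2 fold change of 0.39 (SE 0.17, adjusted p = 0.230). *hspa9*, the Hsp70 of the import motor, had 0.30 (SE 0.17, adjusted p = 0.338). *dnajc11a*, a J-protein linked to the organization of cristae, was counted at 41.8, 34.5 and 43.1 CPM in mutants and at 33.2, 26.7 and 27.6 CPM in wild types. These groups did not overlap, and the log2 fold change of 0.45 (SE 0.13) had an adjusted p of 0.0829, or 0.0431 with the block and 0.0348 with DESeq2.

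**Figure D3:**
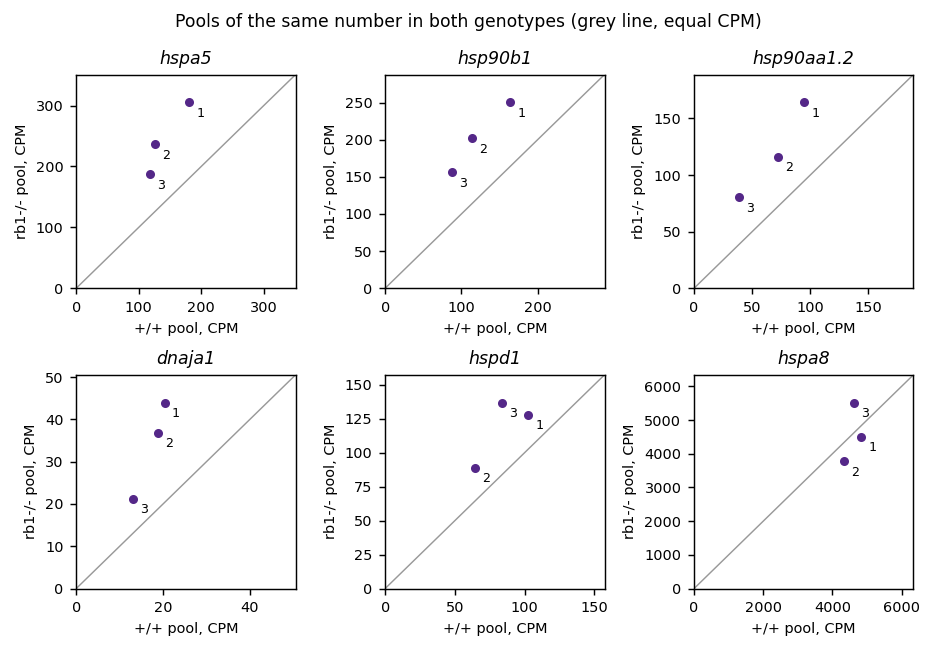
CPM of the mutant pool (y axis) against the wild-type pool of the same number (x axis) for 6 members, with the pool number beside each point and a grey line of equal CPM. All 3 points lie above the line for *hspa5*, *hsp90b1*, *hsp90aa1.2*, *dnaja1* and *hspd1*, while *hspa8* has points on both sides.

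Small heat shock proteins bind unfolding proteins without ATP. Of 9 genes, 8 were tested and none passed. *hspb9* was too low to test, at 0.0902 to 0.301 CPM in mutants and 0.0889 to 0.439 CPM in wild types. *hspb1*, or Hsp27, was counted at 25.8, 19.1 and 24.0 CPM in mutants and at 20.3, 17.2 and 16.4 CPM in wild types, with overlap between mutant pool 2 and wild-type pool 1 (log2 fold change 0.35, SE 0.14, adjusted p = 0.184). *hspb7*, known from heart and muscle, had -0.12 (SE 0.16, adjusted p = 0.696). *hspb3* was the only small heat shock gene of the 8 tested whose groups were apart, with mutants higher (background 16.1%). It was between 0.857 and 1.04 CPM in mutants and between 0.593 and 0.626 CPM in wild types (log2 fold change 0.63, adjusted p = 0.106).

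No difference was detected in the J-proteins of vesicle traffic. Of 7 genes, 2 were above 0 (48.2% of all genes), and the median log2 fold change was -0.02. None had an unadjusted p under 0.05 (background 12.8% higher and 10.5% lower). They include the *dnajc5* copies, which encode the cysteine string protein of synaptic vesicles, and *dnajc6*, the auxilin that uncoats clathrin vesicles. *dnajc5ab* was counted at 201, 202 and 176 CPM in mutants and at 193, 205 and 188 CPM in wild types, with fully overlapping groups (log2 fold change -0.02, SE 0.10, 95% interval -0.24 to 0.21). *dnajc5aa* had 0.07 (SE 0.09), with a 95% interval of -0.14 to 0.27.

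The remaining names passed in no case without the block. *hspbp1*, a nucleotide exchange factor of Hsp70, differed by a log2 fold change of 0.42 (SE 0.14, adjusted p = 0.126), and *hspbap1*, named for binding a small heat shock protein, had 0.20 (SE 0.18, adjusted p = 0.559). Of 8 other C-subfamily genes, 5 were above 0 (48.2% of all genes). *dnajc25* was at 0.63 (adjusted p = 0.123) and passed with the block (adjusted p = 0.0486). The cytosolic *dnajc7*, which binds both Hsp70 and Hsp90, was at 0.06 (SE 0.10, adjusted p = 0.776), and *dnajc4* was at -0.30 (SE 0.22, adjusted p = 0.469). The lowest log2 fold change of all members belonged to *dnajc22*, at -0.64 (adjusted p = 0.471). It rested on mutant pool 2, with 0.481 CPM against 2.33 and 1.96 CPM in mutant pools 1 and 3 and 2.10 to 2.81 CPM in wild types.

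Levels of different genes were compared per length, as the deposited FPKM (counts relative to exonic length and to the total of the lane) averaged over lanes and over the 6 pools. *hspa8* (1786 FPKM) and *hsp90ab1* (1099 FPKM) stood far above the rest, and together they made up 68.8% to 74.2% of the summed FPKM of all members in mutant pools and 74.0% to 76.2% in wild-type pools. Next came *hspa5* at 82.7 FPKM, *dnaja2* at 67.6 FPKM and *hsp90b1* at 59.2 FPKM. The inducible genes were near the bottom, at ranks 71, 73 and 76 among the members, with *hsp70l* at 1.03 FPKM, *hsp70.2* at 1.44 FPKM and *hsp70.3* at 1.67 FPKM, so the FPKM level of *hspa8* was 1738 times that of *hsp70l*.

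The members that passed were spread over the range of levels, from *dnajc9* and *hspa4a* at ranks 18 and 20 by FPKM to *hsp70l* at rank 76. None of the 10 members with the highest FPKM passed (background 3.82%). Of these 10, 7 were above 0 (48.2% of all genes) with a median log2 fold change of 0.19. With the block 2 of them were higher at an adjusted p of at most 0.05 (background 5.1%), and with DESeq2 3 (background 6.27%). All mutant pools exceeded all wild-type pools in 4 of them (background 16.1%). All members together took 0.836% to 0.876% of the summed FPKM of all genes in mutant pools and 0.771% to 0.805% in wild-type pools. These shares did not overlap, but they also depend on each pool's FPKM total. The summed FPKM of the members itself overlapped, at 3828 to 4386 in mutants and 3675 to 3858 in wild types. The summed FPKM of the inducible class was 5.04 to 6.30 in mutants and 2.34 to 3.34 in wild types. That of the ER class was 248 to 342 in mutants and 179 to 235 in wild types.

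**Figure D4:**
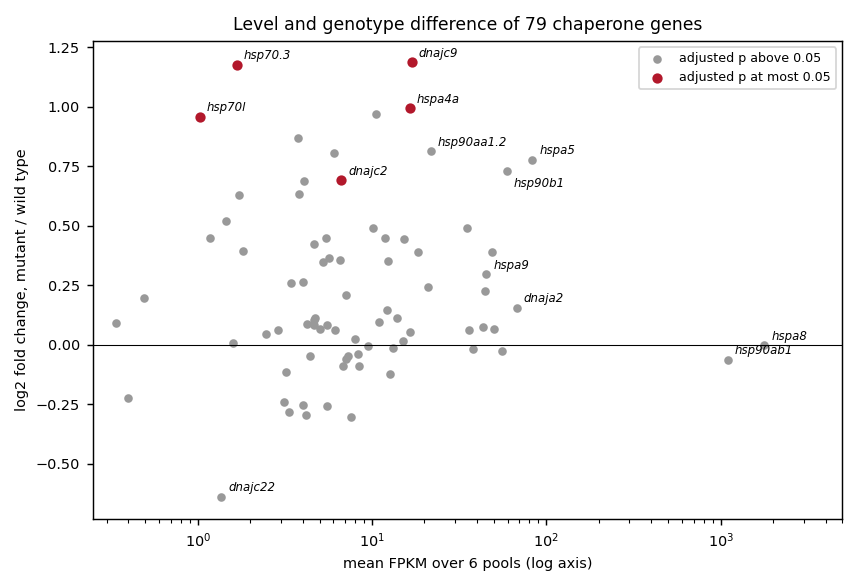
Log2 fold change (y axis) of the 79 tested members against their mean FPKM over 6 pools (x axis, log scale), with the 5 members at an adjusted p of at most 0.05 in red. *hspa8* at 1786 FPKM and *hsp90ab1* at 1099 FPKM lie close to the line of no difference, and the inducible *hsp70l* and *hsp70.3* lie high at the left edge.

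Chaperone genes also differed between pools of one genotype, and the members were split over which pool was the highest. Pool 1 was the highest in both genotypes for 25 of 79 members, among them *hspa4a*, *dnaja1*, *dnajb1a*, *hspa5*, *hsp90b1*, *hsp70l*, *hsp70.3* and both *hsp90aa1* genes. Pool 2 was the highest in both for 7 members and pool 3 for 14. Among mutant pools, pool 3 was the highest for 38 members and pool 1 for 31. Among wild-type pools, pool 1 was the highest for 42 and pool 3 for 18. The corresponding shares of all genes were not computed. Mutant pool 1 was 2.08 times mutant pool 3 in CPM of *dnaja1*, and wild-type pool 1 was 1.57 times wild-type pool 3. Across the 79 members, deviations from the genotype mean correlated between pools of the same number at r = 0.75, 0.62 and 0.58 for pools 1, 2 and 3, while pools of different numbers gave -0.71 to 0.02. Across all 22753 genes the corresponding values were 0.41, 0.50 and 0.25, and -0.42 to 0.11. Deviations from a genotype mean cancel over its pools, so positive values at the same number bring values below 0 on average at different numbers. Genes are not independent replicates, and these correlations are descriptions.

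Genes that regulate or assist these chaperones were taken from 4 lists of known members. Of 6 genes for heat shock factors and their binding proteins, *hsf4* alone passed (background 3.82%). It was counted at 15.7, 14.2 and 15.3 CPM in mutants and at 7.07, 7.23 and 6.16 CPM in wild types, so every mutant pool was far above every wild-type pool. *hsf4*, the factor known for lens development, rose 2.21-fold (log2 fold change 1.14, SE 0.11, adjusted p = 0.00281) and passed without any single pool. *hsf1*, the factor that answers heat, was at 33.8, 34.6 and 38.1 CPM in mutants and at 29.8, 34.0 and 43.0 CPM in wild types, with overlapping groups (log2 fold change -0.00, SE 0.14, 95% interval -0.33 to 0.32). *hsf2* (log2 fold change -0.18, adjusted p = 0.675) and *hsbp1b*, which encodes a binding protein of the factors (0.15, adjusted p = 0.468), did not pass.

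Of 33 listed cochaperones of Hsp70 and Hsp90, 28 were found and tested. At an adjusted p of at most 0.05, 4 were higher and none was lower (background 3.82% and 2.17%). With the block 6 were higher and 1 was lower (background 5.1% and 4.03%). DESeq2 gave 7 higher and 1 lower (background 6.27% and 5.19%). Of the 28, 25 were above 0 (48.2% of all genes), and the median log2 fold change was 0.28. *ahsa1b*, an activator of the Hsp90 ATPase, was counted at 40.9, 36.1 and 39.0 CPM in mutants and at 26.5, 26.5 and 27.2 CPM in wild types (log2 fold change 0.53, SE 0.09, adjusted p = 0.0162). The phosphatase gene *ppp5c* rose by a log2 fold change of 0.52 (SE 0.10, adjusted p = 0.0243), and *ptges3b*, or p23, by 0.64 (SE 0.13, adjusted p = 0.0333). The cyclophilin gene *ppid*, chosen to complete the count, had 0.57 (SE 0.12, adjusted p = 0.0354). All 4 had groups that did not overlap, while *ptges3a* (0.09, adjusted p = 0.610) and *ahsa1a* (0.30, adjusted p = 0.579), the other copies of those genes, did not pass. *fkbp5*, an immunophilin of the steroid receptor complex that was chosen after its values were seen, had lower values in every mutant pool. It was at 92.5, 154 and 44.3 CPM in mutants and at 382, 503 and 197 CPM in wild types. The log2 fold change was -1.90 (SE 0.48, adjusted p = 0.0623, 0.00426 with the block and 0.0182 with DESeq2).

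The TRiC chaperonin and its feeder prefoldin fold actin and tubulin. All 14 genes were above 0 (48.2% of all genes), with a median log2 fold change of 0.26. At an adjusted p of at most 0.05, 1 was higher, a count near the background of 3.82%. With the block 2 were higher (background 5.1%), and with DESeq2 3 (background 6.27%). At an unadjusted p under 0.05, 8 of the 14 were higher and none was lower (background 12.8% and 10.5%). All mutant pools exceeded all wild-type pools in 9 (background 16.1%), and the reverse held for none (background 13.2%). *pfdn2* was counted at 41.3, 36.5 and 41.7 CPM in mutants and at 31.0, 28.7 and 29.5 CPM in wild types. The groups were apart (log2 fold change 0.42, SE 0.09, adjusted p = 0.0396). The chaperonin subunit genes *cct2* (0.37, adjusted p = 0.0510) and *tcp1* (0.36, adjusted p = 0.0539) were just outside, and *cct2* passed with the block (adjusted p = 0.0498). Both passed with DESeq2 (adjusted p = 0.0160 for *cct2* and 0.00484 for *tcp1*).

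Of 26 listed genes of the unfolded protein response, 25 were tested and 22 were above 0 (48.2% of all genes), with a median log2 fold change of 0.29. At the threshold of 0.05, 2 passed upward and none downward (background 3.82% and 2.17%). With the block 6 passed upward (background 5.1%), and with DESeq2 7 (background 6.27%), with none downward in either. *manf*, a secreted protein of the stressed ER, was counted at 16.4, 14.05 and 14.4 CPM in mutants and at 9.77, 6.66 and 6.91 CPM in wild types. Its groups were apart, and it rose 1.92-fold (log2 fold change 0.94, SE 0.17, adjusted p = 0.0215). *creld2*, another ER stress gene, rose 2.13-fold (log2 fold change 1.09, SE 0.23, adjusted p = 0.0396). *pdia6*, a disulfide isomerase, differed by a log2 fold change of 0.77 (SE 0.20, adjusted p = 0.0692) and passed with the block (adjusted p = 0.00897). It also passed with DESeq2 (adjusted p = 0.00710). Of the list genes that passed, *hsf4* alone kept the threshold in all 6 fits that leave out 1 pool, and the other 7 kept it in 1 to 3 of them, with highest adjusted p-values of 0.103 for *ahsa1b* to 0.188 for *pfdn2*.

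**Figure D5:**
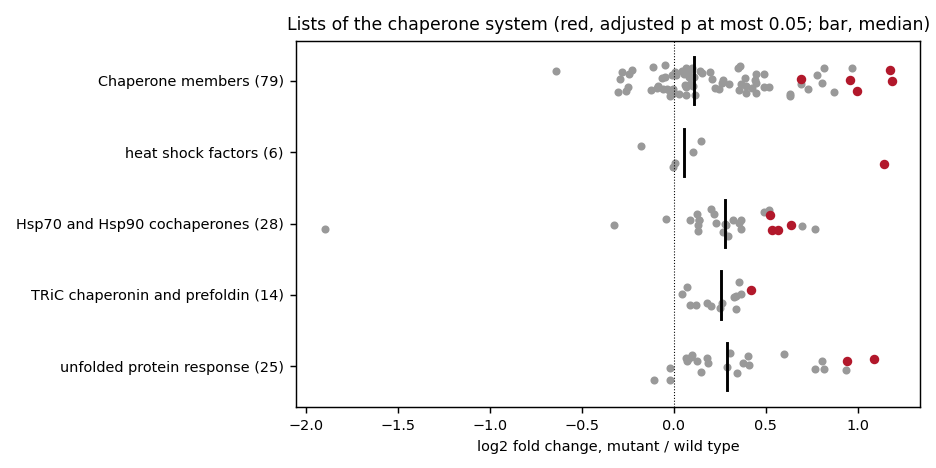
Log2 fold change (x axis) of each tested gene of the chaperone family and of 4 lists of chaperone regulators and partners, 1 point per gene with vertical jitter, a black bar at the median and genes at an adjusted p of at most 0.05 in red. The medians lie between 0.06 for the heat shock factors with their binding proteins and 0.29 for the unfolded protein response. *fkbp5* is the point farthest to the left.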

How the data were processed

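Per the labels and the study's methods, libraries were made with the TruSeq v2 kit and the authors aligned reads with GSNAP to GRCz10 and counted uniquely aligned reads per gene with HTSeq. Whether the counting used strand is not given in the sources used here, so overlapping genes and close copies are uncertain. The authors deposited raw counts per gene and lane, and FPKM values made from them with exonic lengths. They also deposited a table of their own DESeq2 comparison, which was not used.

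Lanes were summed per pool. edgeR 4.0.16 in R 4.3.3 was run with TMM, genotype alone in the design and the default low-count filter, and p-values were adjusted by Benjamini-Hochberg over 22753 genes. The standard error is the log2 fold change divided by the square root of F. Alternatives were DESeq2 1.42.0, RLE or no scaling, no filter, single lanes, a replicate block and leaving out each pool. Same-numbered pools deviated together in all 3 pairs (r = 0.41, 0.50 and 0.25 on log2(CPM + 1) over all genes). The numbers were therefore taken to pair the pools, although the labels do not say what they share. The reported fit, to which passing refers unless another fit is named, leaves this pairing out. Values with the block stand beside a result where it changes the call. As nothing in the labels says that pools came from separate crosses, p-values measure the spread between these pools.

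Members, classes, lists and tests were chosen with earlier results of these data known. Named are *hsp70l*, called members, the 12 with the smallest p, the 2 most abundant of each class by FPKM, up to 4 with the largest rise and fall among members at 1 CPM or more without overlap, and the 3 genes with the smallest p of each list. Other genes (*dnajb1b*, *hspa14*, *hspa4l*, *hsp90aa1.1*, *dnajc3b*, *dnajb9a*, *hspa13*, *dnajc10*, *dnajb11*, *hspe1*, *dnajc25*, *dnajc22*, *dnajc17*, *dnajc6*, *hspb3*, *hspb9*, *hsf1*, *ppid*, *ptges3a*, *ahsa1a* and *fkbp5*) were added after their values were seen. RefSeq (GRCz12tu) served for gene names, to which all 80 members matched by symbol, and for the order of genes only.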

Additional observations from a re-analysis of the deposited data

How the results depend on the processing

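Lower calls stayed at 0 in every setting run, at both thresholds (edgeR gave 2 members lower at an unadjusted p under 0.05, and DESeq2 gave none lower at an adjusted p of at most 0.05). The count of members higher at an adjusted p of at most 0.05, 5 as reported, was 12 with DESeq2, 16 with the replicate block, 8 with library size only and 3 on lane b alone, and it ran from 0 to 8 when 1 pool was left out. The count at the stricter call, 1 as reported, was 7 with DESeq2, 2 with the replicate block, 0 with RLE size factors and 0 on lane b alone, and it was 0 whichever pool was left out. The median log2 fold change of the members, 0.11 as reported, ran from 0.12 to 0.19 when 1 pool was left out, the highest without mutant pool 2. The cause of these changes was not tested. The share of all genes that passed was computed only for the reported fit, DESeq2 and the replicate block. Counts from the other settings have no background beside them.

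Of the values of single named genes under the alternatives, 377 kept their direction and side of the threshold, 22 passed newly, 16 no longer passed and 14 changed sign, all of genes close to 0. *hspa8* (-0.00 as reported) turned to 0.0012 on lane a, 0.0018 on lane b, 0.0525 with library size only, and between -0.15 and 0.12 when 1 pool was left out. *dnaja2l* (-0.03) turned to 0.0318 with library size only and ran from -0.0951 to 0.0695 over the pools left out. *dnajc5ab* (-0.02) turned to 0.0446 with library size only and ran from -0.0501 to 0.0448. *hspb7* (-0.12) turned to 0.0337 without mutant pool 2 and was as low as -0.23 otherwise. With 3 pools per genotype, intervals were wide for genes that varied between pools, such as *hsp90aa1.2* (95% interval -0.00 to 1.63).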

Other observations

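Genes with names of this family in capitals, and chaperone genes under another name, were not taken by the choice of members and were also measured. *DNAJA4*, a class A J-protein gene, was at 9.39, 6.41 and 5.80 CPM in mutant pools 1 to 3 and at 5.10, 3.98 and 3.64 CPM in wild-type pools 1 to 3, with groups apart (log2 fold change 0.76, SE 0.22, adjusted p = 0.0863, and 0.0211 with the replicate block). *hsph1*, an Hsp110 gene, was at 9.13, 8.72 and 8.10 CPM in mutants and at 6.54, 5.35 and 6.22 CPM in wild types, with groups apart (log2 fold change 0.52, SE 0.13, adjusted p = 0.0552, and 0.0494 with the block). *serpinh1b*, which encodes the collagen chaperone Hsp47 of the ER, was at 56.3, 28.6 and 22.6 CPM in mutants and at 19.6, 11.1 and 12.7 CPM in wild types. These groups were apart too, with pool 1 the highest of both (log2 fold change 1.31, SE 0.36, adjusted p = 0.0765, and 0.0116 with the block). With DESeq2 the adjusted p was 0.0206 for *DNAJA4*, 0.0175 for *hsph1* and 0.00163 for *serpinh1b*. *serpinh1a* (log2 fold change 0.31, adjusted p = 0.368), a second *HSPA8* entry (-0.02, adjusted p = 0.971), *DNAJC16* (0.16, adjusted p = 0.484) and *HSPB11* (0.04, adjusted p = 0.938) had overlapping groups or small differences.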
